A study of Mus musculus with 18 samples.

Results

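Pancreatic islets of mice differ from one another in how much glucagon transcript they hold for a given amount of insulin transcript, and the 6 islet libraries with the most were compared here with the 6 that had the least. The members were chosen by a measured value: for each of 18 libraries, the log2 value of the glucagon gene Gcg minus that of the insulin gene Ins2. The 6 libraries with the highest values are called glucagon-rich, the 6 with the lowest glucagon-poor, and the remaining 6 lie in between. Of the 18 mice, 10 carried the genotype labelled NRK1_BKO (KO), in which nicotinamide riboside kinase 1 is knocked out with Ins1Cre, and 8 were labelled NRK1_WT (WT). Ins1Cre is a Cre recombinase driven from the Ins1 locus and so acts in beta cells. The titles of both genotypes carry the name Ins1Cre, and the labels do not say whether the WT mice had the Cre allele. All mice had been fed a high-fat diet for 12 weeks, with 1 library per animal number in the titles; age and sex are not in the labels used here. The glucagon-rich group held 2 KO and 4 WT libraries, and the glucagon-poor group 5 KO and 1 WT library, WT 7, so genotype was a covariate in the test. Gene expression was read at the 3′ ends of transcripts, as log2 of CPM plus an offset of 0.562 CPM. CPM here are the reads of a gene times a scaling factor of each library, which does not follow its read total alone. Differences below are glucagon-rich minus glucagon-poor on that log2 scale.

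An islet is a small organ of several endocrine cell types. Beta cells release insulin, alpha cells glucagon, delta cells somatostatin, and PP cells pancreatic polypeptide; in mice, beta cells are the majority and form the core, with the other types mostly in the mantle. Glucagon raises blood glucose, insulin lowers it, and somatostatin restrains the release of both. In a bulk library, fewer cells of a type and less RNA per cell cannot be told apart.

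The promoters of the glucagon gene and of 3 other hormone genes that the results turn on are shown from RefSeq (GRCm38.p6), each from 250 bases before to 50 after the annotated start, 5′ to 3′ on the gene's own minus strand. They are Gcg (chr2:62483604-62483903), Sst (chr16:23890795-23891094), Ppy (chr11:102101270-102101569) and Pyy (chr11:102107783-102108082; the first of 2 RefSeq entries). Capitals mark exact matches on either strand to the cAMP response element TGACGTCA or the TATA box TATAAA.
Gcg: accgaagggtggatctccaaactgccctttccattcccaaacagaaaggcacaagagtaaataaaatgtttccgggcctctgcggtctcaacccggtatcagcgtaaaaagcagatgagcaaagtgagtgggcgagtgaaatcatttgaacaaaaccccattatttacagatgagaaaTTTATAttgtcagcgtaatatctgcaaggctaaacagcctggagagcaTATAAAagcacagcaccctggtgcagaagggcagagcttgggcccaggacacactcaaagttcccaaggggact
Sst: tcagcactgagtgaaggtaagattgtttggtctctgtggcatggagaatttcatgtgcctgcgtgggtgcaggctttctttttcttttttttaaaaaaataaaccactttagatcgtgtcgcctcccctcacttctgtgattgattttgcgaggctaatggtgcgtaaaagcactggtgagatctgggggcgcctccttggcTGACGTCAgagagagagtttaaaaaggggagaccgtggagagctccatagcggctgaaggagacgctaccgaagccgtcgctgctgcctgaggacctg
Ppy: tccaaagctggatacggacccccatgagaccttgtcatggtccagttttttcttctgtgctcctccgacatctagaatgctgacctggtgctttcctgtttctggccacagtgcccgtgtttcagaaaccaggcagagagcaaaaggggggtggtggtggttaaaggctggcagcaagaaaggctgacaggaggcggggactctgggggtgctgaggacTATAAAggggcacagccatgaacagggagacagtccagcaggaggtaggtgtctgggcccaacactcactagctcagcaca
Pyy: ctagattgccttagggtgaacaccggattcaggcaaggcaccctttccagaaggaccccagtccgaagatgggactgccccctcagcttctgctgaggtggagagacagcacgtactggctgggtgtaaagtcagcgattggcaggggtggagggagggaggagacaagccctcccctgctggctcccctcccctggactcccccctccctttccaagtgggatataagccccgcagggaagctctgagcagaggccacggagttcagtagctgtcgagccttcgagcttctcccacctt
The Sst promoter held the cAMP response element, with its first base 48 bases before the start, and 588 of 32851 promoters of the same length (1.79%) held one. TATAAA occurred in the Gcg promoter on both strands and in the Ppy promoter 31 bases before the start, and in 13.6% of all promoters. The Pyy window held neither run of letters. Ppy (chr11:102099931-102101319) and Pyy (chr11:102106676-102107832) are neighbouring genes on chromosome 11. A match of this kind describes the letters in the window and is not a measurement of binding.

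Gcg itself set the groups, so its values are a description. The log2 ratio of Gcg to Ins2 was lowest -5.61, median -5.33 and highest -4.95 in the glucagon-rich libraries, against -7.98, -7.83 and -7.05 in the glucagon-poor ones. In reads, that is 30.9 to 49.0 Ins2 reads per Gcg read in glucagon-rich libraries and 132 to 253 in glucagon-poor libraries. The ranking ran without a wide gap at the upper edge: WT 5, just inside the glucagon-rich group, had -5.61 and WT 4, just outside it, had -5.67. At the lower edge WT 7, just inside the glucagon-poor group, had -7.05 and WT 6, just outside it, -6.86. The log2 value of Gcg (chr2:62474530-62483653) was 12.87, 13.03 and 13.40 (lowest, median, highest) in glucagon-rich and 10.66, 11.23 and 11.98 in glucagon-poor libraries. That of Ins2 (chr7:142678656-142679726) was 18.33, 18.35 and 18.61 in glucagon-rich and 18.45, 18.98 and 19.46 in glucagon-poor libraries. Between the groups the mean log2 values were thus further apart for Gcg, 13.07 ± 0.18 against 11.25 ± 0.52 (SD, n = 6 each), than for Ins2, 18.39 ± 0.11 against 18.93 ± 0.34 (SD, n = 6 each). Ins2 took 36.0% to 40.6% of the reads of glucagon-rich libraries and 39.5% to 56.1% of those of glucagon-poor libraries.

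**Figure D1:**
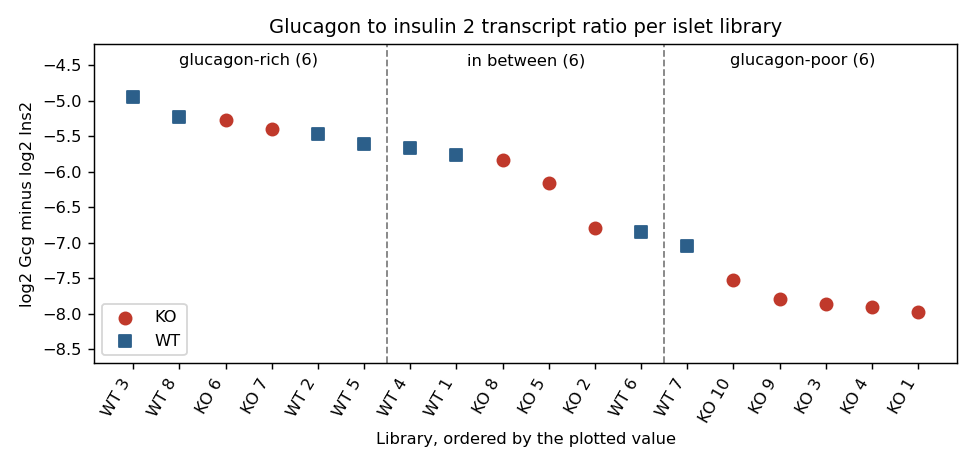
Log2 Gcg minus log2 Ins2 (vertical axis, log2 units) in each of the 18 islet libraries, ordered from highest to lowest, with KO libraries as red circles and WT libraries as blue squares; dashed lines bound the 6 glucagon-rich, 6 in-between and 6 glucagon-poor libraries. The glucagon-rich libraries lie between -5.61 and -4.95 and the glucagon-poor ones between -7.98 and -7.05, and 5 of the 6 at the low end are KO.

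The libraries held 3125093 to 4146746 reads over the 10509 listed genes in the glucagon-rich group and 2831137 to 4303680 in the glucagon-poor group. Listed genes without a read numbered 79 to 120 in glucagon-rich libraries and 58 to 346 in glucagon-poor libraries, where WT 7 had 346 and KO 3 had 227. The deleted gene Nmrk1 had 7 to 36 reads in glucagon-rich and 4 to 21 in glucagon-poor libraries; reads at its 3′ end do not check the deletion. Every pair of libraries of 1 genotype differed by more than sampling noise, so each was counted as 1 sample.

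Most islet transcripts did not differ detectably between the groups, and 4 of the 6 that rose were markers of islet endocrine cells other than beta cells. Of 10507 genes tested with limma, with genotype as a covariate, 6 passed a Benjamini-Hochberg adjusted p of 0.05 as higher in glucagon-rich libraries (0.0571% of those tested): Sst, Ttr, Rbp4, Pyy, Sfrp5 and Unc5c. As lower, 2 passed (0.019%), Cd74 and H4c9. At an unadjusted p under 0.05, 5.82% were higher and 4.22% lower. Over all genes tested the median difference was 0.03 and 53.5% were above 0. The groups were formed from 2 genes of the same libraries, so these p-values concern association among these islets and not an effect of a treatment. None of the 8 calls held in limma without WT 7, the only WT library in the glucagon-poor group, when 0 genes passed and 526 had an unadjusted p under 0.05. Without both WT 7 and KO 3, 4 genes passed in limma as higher, among them Sst and Pyy. Without WT 7 the difference is estimated within KO alone, between 2 glucagon-rich and 5 glucagon-poor libraries, and that value is given beside the genes that passed. Both glucagon-rich KO libraries, KO 6 and KO 7, belong to the same run of consecutive animal numbers in the titles. None of the 5 glucagon-poor KO libraries belongs to it, so ratio and run cannot be told apart in the values within KO.

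Somatostatin transcripts followed glucagon transcripts. Sst (chr16:23889573-23891342), the delta cell hormone, had log2 values of 11.01, 11.46 and 11.71 (lowest, median, highest) in glucagon-rich libraries, against 9.43, 9.81 and 10.69 in glucagon-poor libraries. All 6 glucagon-rich libraries thus lay above all 6 glucagon-poor ones, as was so for 20 of the genes tested (0.19%). The difference was 1.60 (SE 0.23, 95% interval 1.13 to 2.07), a 3.03-fold higher level, with a limma adjusted p of 0.00487. Among KO libraries the difference was 1.65, with an adjusted p of 0.167 in limma without WT 7, and among WT libraries, 4 against WT 7 alone, it was 1.51.

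Rbp4 (chr19:38116620-38125321), the plasma carrier of retinol and a gene of delta cells within the islet, also rose in glucagon-rich libraries. Its log2 values were 6.17, 6.31 and 6.54 in glucagon-rich libraries and 4.31, 5.17 and 5.93 in glucagon-poor libraries, again without overlap. The difference was 1.45 (SE 0.25, 95% interval 0.93 to 1.97; limma adjusted p = 0.0250), and 1.23 within KO. Across the delta cell list, 6 of 9 genes were measured and 4 were higher, with a median difference of 1.41; 2 passed, Sst and Rbp4. Efnb3, an ephrin ligand, had a difference of 1.64 on 2 to 15 reads per glucagon-rich library and 0 to 8 per glucagon-poor library and did not pass (limma adjusted p = 0.322).

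The alpha cell genes other than Gcg lay mostly on the glucagon-rich side. Ttr (chr18:20664209-20674326), transthyretin, a thyroid hormone and retinol-binding protein carrier abundant in alpha cells, had log2 values of 9.15, 9.55 and 9.84 in glucagon-rich and 7.96, 8.39 and 8.58 in glucagon-poor libraries. The groups did not overlap. Ttr differed by 1.02 (SE 0.17, 95% interval 0.68 to 1.37), a 2.03-fold higher level, with a limma adjusted p of 0.0213, and by 0.98 within KO. Of 18 alpha cell genes listed beside Gcg, 13 were measured, 12 were higher and the median difference was 0.49, or 0.86 without WT 7. Ttr alone passed the adjusted threshold, and 6 of the 13 had an unadjusted p under 0.05.

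Irx1, an Iroquois homeobox transcription factor of alpha cells, had log2 values of 0.60, 2.80 and 3.55 in glucagon-rich libraries against -0.83, 0.62 and 2.13 in glucagon-poor ones, a difference of 2.56 (limma adjusted p = 0.154). The groups overlapped, and the gene did not pass over all genes tested.

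The remaining alpha cell genes were closer together. Etv1, an ETS-family transcription factor, differed by 0.49 and Smarca1, a chromatin remodelling ATPase, by 0.55, both with an unadjusted p under 0.05 only. The amino acid transporters Slc38a5 and Slc7a2 differed by 0.83 and 0.24. Gc, the vitamin D binding protein, differed by 0.27, Dpp4, the peptidase that inactivates incretins, by 0.13, Pou3f4 by 0.18 and Fap, a related peptidase, by 0.11; without WT 7 the values of Pou3f4 and Fap were 0.86 and 1.20. Meis2, a homeobox gene, was the one member on the other side, at -0.24. None of these 9 passed, with limma adjusted p-values of 0.453 to 0.979, and the sign of Gc, Dpp4, Pou3f4, Fap and Meis2 turned under at least 1 alternative, that of Fap also under quantile normalization.

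Among the hormones of the PP cell lineage Pyy rose with glucagon. Pyy, peptide YY, a relative of pancreatic polypeptide that restrains appetite and islet secretion, had log2 values of 10.71, 10.83 and 11.23 in glucagon-rich and 8.78, 9.55 and 10.36 in glucagon-poor libraries. No glucagon-poor library reached the lowest glucagon-rich one. The difference was 1.42 (SE 0.25, 95% interval 0.91 to 1.94), a 2.68-fold higher level, with a limma adjusted p of 0.0250, and it was 1.61 within KO.

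Ppy, pancreatic polypeptide itself, varied more. Its log2 values were 8.75, 9.38 and 9.96 in glucagon-rich and 6.89, 7.94 and 9.41 in glucagon-poor libraries, so the groups overlapped. The difference of 1.49 (SE 0.36) did not pass between the 6 and 6 libraries (limma adjusted p = 0.114). With the ratio as a continuous term over all 18 libraries Ppy did pass, with a slope of 0.71 log2 units per log2 unit of the ratio (limma adjusted p = 0.0326). All 5 measured genes of the PP and epsilon cell list were higher, with a median of 1.42. Pyy alone passed; Fev, a transcription factor of endocrine precursors, had a difference of 1.998 on at most 18 reads per library (limma adjusted p = 0.208).

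**Figure D2:**
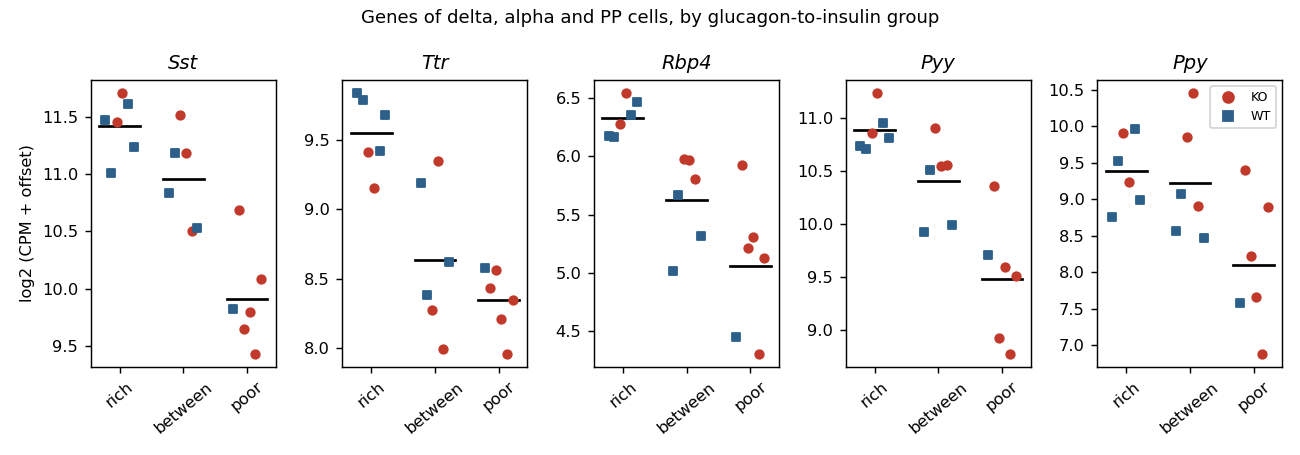
Log2 values (log2 of CPM plus 0.562) of Sst, Ttr, Rbp4, Pyy and Ppy in the 6 glucagon-rich, 6 in-between and 6 glucagon-poor libraries; each point is a library, KO as red circles and WT as blue squares, and black bars are group means. For Sst, Ttr, Rbp4 and Pyy every glucagon-rich library lies above every glucagon-poor one, while for Ppy the glucagon-poor libraries reach 9.41 and the lowest glucagon-rich one has 8.75.

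The in-between libraries, which the test did not use, gave mean log2 values that lay between those of the other groups for each of these 5 genes. Sst averaged 10.96 ± 0.40 in them, against 11.42 ± 0.26 in glucagon-rich and 9.91 ± 0.44 in glucagon-poor libraries (SD, n = 6 each). For Ttr the in-between mean was 8.64 ± 0.53, nearer to the glucagon-poor mean of 8.35 ± 0.23 than to the glucagon-rich mean of 9.55 ± 0.26 (SD, n = 6 each).

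Sfrp5 and Unc5c, whose products act outside hormone synthesis, were the other genes that rose. Sfrp5 (chr19:42197971-42202252), a secreted inhibitor of Wnt signalling, had 33 to 108 reads in glucagon-rich libraries and 2 to 39 in glucagon-poor libraries. Its log2 values were 3.25, 4.23 and 4.85 in the glucagon-rich group and 0.47, 2.14 and 3.30 in the glucagon-poor group, which overlapped slightly. The difference was 2.64 (SE 0.48; limma adjusted p = 0.0287), and 2.17 within KO. For Sfrp5 the in-between mean of 4.08 was close to the glucagon-rich mean of 4.09. The highest Sfrp5 value of all, 5.52, was that of KO 2, an in-between library.

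Unc5c (chr3:141465564-141834924), a receptor for the guidance cue netrin, had 14 to 61 reads in glucagon-rich and 0 to 13 in glucagon-poor libraries. The groups did not overlap, with log2 values of 2.04, 3.46 and 4.10 against -0.83, 0.99 and 1.96. The difference was 2.99 (SE 0.54; limma adjusted p = 0.0287), and 2.45 within KO. Few reads lie behind both genes. With 1 CPM more added on the linear scale, the differences were 2.23 for Sfrp5 and 2.21 for Unc5c, while that of Sst stayed at 1.60.

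Lpl did not pass between the groups but did over all libraries. Lpl, lipoprotein lipase, which frees fatty acids from circulating triglyceride, had log2 values of 6.37, 7.18 and 7.36 in glucagon-rich libraries and 5.40, 5.83 and 6.79 in glucagon-poor libraries. Its difference was 1.25 (limma adjusted p = 0.0586), and over all 18 libraries its slope of 0.58 passed (limma adjusted p = 0.00238).

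None of the beta cell genes tested passed between the groups. Ins1, the second mouse insulin gene, had log2 values of 14.43, 15.73 and 16.19 in glucagon-rich and 15.34, 15.78 and 16.71 in glucagon-poor libraries. With genotype as a covariate its difference was -0.75 (95% interval -1.56 to 0.06, limma adjusted p = 0.527). Its mean share of the reads, without the covariate, was 5.66% in glucagon-rich and 5.69% in glucagon-poor libraries. Ins1 is the locus of the Cre driver, and reads of Ins1 and Ins2, which are close in sequence, may be assigned to either. Iapp, the amyloid peptide released with insulin, had 13.72, 14.33 and 14.47 in glucagon-rich libraries and 14.12, 14.54 and 14.73 in glucagon-poor ones, a difference of -0.33 (95% interval -0.96 to 0.30; limma adjusted p = 0.751).

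Of 26 beta cell genes listed beside Ins2, 23 were measured, 14 were higher and 9 lower in glucagon-rich libraries, the median was 0.11 and 0 passed; without WT 7, 11 of 23 were higher, with a median of -0.0032. The members with an unadjusted p under 0.05 were both on the higher side. They were Npy, neuropeptide Y, at 2.23 on at most 39 reads per library, and Ppp1r1a, an inhibitor of protein phosphatase 1, at 0.55. The genes common to endocrine cells were evenly split, with 12 of 24 measured higher, a median of 0.00 and 0 that passed. Pcsk1n, an inhibitor of prohormone convertase 1, differed by -0.66 (limma adjusted p = 0.181), and Neurod1, an endocrine transcription factor, by 0.41 (limma adjusted p = 0.473), or 0.08 without WT 7.

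The 2 genes that fell were Cd74, a gene of antigen presentation, and H4c9, a histone gene. Cd74 (chr18:60803849-60812652), the invariant chain that guides MHC class II molecules to the compartment where they are loaded with peptide, had log2 values of 4.59, 5.13 and 5.91 in glucagon-rich libraries and 5.65, 6.18 and 6.56 in glucagon-poor libraries. The groups overlapped through 1 glucagon-rich library, WT 8, at 5.91, which lay above KO 4 at 5.65. The difference was -1.20 (SE 0.23, 95% interval -1.67 to -0.73; limma adjusted p = 0.0422), and -1.31 within KO. Its slope over 18 libraries was -0.50 (limma adjusted p = 0.0330), but -0.21 (limma adjusted p = 0.917) over 14 libraries with the run of animal numbers as a further term. H2-Ab1, a beta chain of class II itself, had 3.21, 3.98 and 5.25 in glucagon-rich and 4.82, 5.48 and 6.05 in glucagon-poor libraries. Its difference of -1.55 did not pass between the groups (limma adjusted p = 0.0796), and its slope over 18 libraries, -0.69, did (limma adjusted p = 0.0499).

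Cd74 and H2-Ab1 are 2 of 14 measured genes of the myeloid list, which holds markers of macrophages and related cells. In that list 3 genes were higher and 11 lower, the median was -0.95, 1 passed and 7 of the lower ones had an unadjusted p under 0.05. The summed reads of the list were 411 to 1157 per glucagon-rich library and 696 to 2293 per glucagon-poor library, and its mean log2 value 2.57 to 3.86 against 3.11 to 4.67, so the groups overlapped. C1qa, a complement component made by macrophages, differed by -0.85 (limma adjusted p = 0.312). Without WT 7, when the difference is estimated within KO alone, the median of the list was -1.06 and 1 of 14 was higher. Slopes on the ratio within the KO libraries had a median of -0.49, and 0 of 14 were positive. Within the WT libraries the median slope was nearer to 0, at -0.15, and 6 of 14 were positive. Whether the list differs between the genotypes in this was not tested. Whether fewer myeloid cells lay in the glucagon-rich preparations was not tested.

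H4c9 (chr13:22040960-22041362), a gene of histone H4, fell by 1.12 (SE 0.22; limma adjusted p = 0.0422), and the difference was -1.08 within KO. Without the genotype covariate the difference was -0.67 and did not pass (limma adjusted p = 0.544), and over 18 libraries the slope of -0.39 did not pass either (limma adjusted p = 0.227). The in-between libraries had a mean log2 value of 4.42, below the glucagon-rich mean of 4.47 and the glucagon-poor mean of 5.15. It had log2 values of 3.68, 4.63 and 4.91 in glucagon-rich and 4.78, 5.04 and 5.97 in glucagon-poor libraries, with the highest value in WT 7. The value is uncertain, because near-identical histone genes can share its reads.

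The other genes nearest to passing on the lower side were neuronal or signalling genes and Aldh1a3. Aldh1a3, a retinaldehyde dehydrogenase used as a marker of dedifferentiated beta cells, had log2 values of 0.14, 1.33 and 3.82 in glucagon-rich and 3.43, 4.91 and 5.23 in glucagon-poor libraries. Of the glucagon-rich libraries KO 6, at 3.82, reached into the glucagon-poor range. The difference of -2.73 (SE 0.57) rested on 2 to 51 reads per glucagon-rich and 35 to 141 per glucagon-poor library and did not pass (limma adjusted p = 0.0796). Its slope over 18 libraries, -1.12, did (limma adjusted p = 0.0334).

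Lin7a, a scaffold protein of cell junctions and synapses, was the named gene with all 6 glucagon-rich libraries below all 6 glucagon-poor ones, as was so for 19 of the genes tested (0.181%). Its log2 values were 1.37, 2.33 and 3.64 in glucagon-rich libraries against 3.79, 4.80 and 5.06, a difference of -1.93 (limma adjusted p = 0.0796). Rasgrf2, an exchange factor that activates Ras, had 6.48, 6.67 and 6.97 in glucagon-rich libraries and 6.94, 7.51 and 7.96 in glucagon-poor ones, a difference of -0.91 (limma adjusted p = 0.0796). Over 18 libraries the slopes of both passed, at -0.94 for Lin7a (limma adjusted p = 0.0323) and -0.42 for Rasgrf2 (limma adjusted p = 0.0161). Stmn3, a microtubule regulator, and Sncb, beta-synuclein, differed by -1.13 and -0.95 and passed in neither (limma adjusted p = 0.0562 and 0.101 between the groups).

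**Figure D3:**
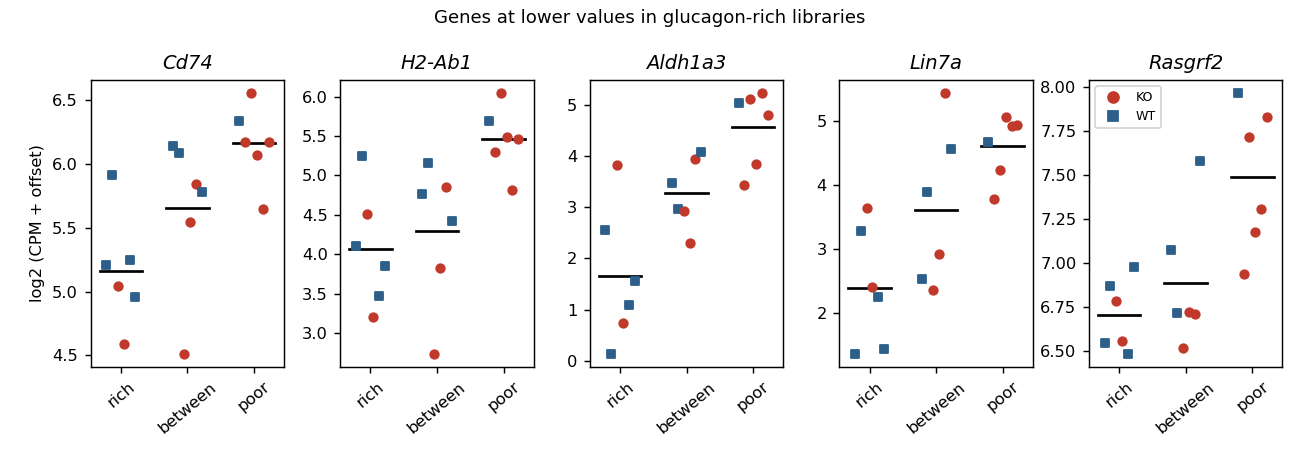
Log2 values (log2 of CPM plus 0.562) of Cd74, H2-Ab1, Aldh1a3, Lin7a and Rasgrf2 in the 6 glucagon-rich, 6 in-between and 6 glucagon-poor libraries; each point is a library, KO as red circles and WT as blue squares, and black bars are group means. Glucagon-rich libraries lie lower on average for each gene, and Lin7a is the one of the 5 without overlap, at most 3.64 in glucagon-rich and at least 3.79 in glucagon-poor libraries.

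Exocrine transcripts, which can reach islet preparations with attached acinar tissue, lay on the glucagon-rich side, and WT 7 weighed on that. All 16 measured acinar genes were higher in glucagon-rich libraries, with a median of 1.03, but 0 passed, and without WT 7 the count was 6 of 16 with a median of -0.14. Within the 8 WT libraries alone all 16 had positive slopes on the ratio, with a median of 1.67, and 10 passed in limma, among them Cela1 (2.005, adjusted p = 0.000231) and Cpa1 (2.80, adjusted p = 0.000897); within the 10 KO libraries 9 of 16 were positive, with a median of 0.06. The mean log2 value of the list was 1.39 in WT 7 and 2.03 in WT 6, the WT libraries with the lowest ratios. The summed reads of the list were 207 to 6842 per glucagon-rich and 159 to 2408 per glucagon-poor library. Cpa1, carboxypeptidase A1, had a difference of 2.11 with 0 reads in WT 7, and 0.02 without that library. Cela1, an elastase, differed by 1.47, or 0.27 without WT 7, and Rnase1, a ribonuclease, by 1.79, or 0.77. With the mean log2 value of the acinar list as a further covariate, the difference of Sst was 1.65 (limma adjusted p = 0.00306) and that of Ttr 0.99 (limma adjusted p = 0.0202), against 1.60 and 1.02 without it.

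Other non-endocrine cell types gave no gene that passed. Of 9 duct genes 6 were higher (median 0.12), of 16 endothelial genes 9 (median 0.02), and of 17 fibroblast and stellate cell genes 6 (median -0.25). Egfl7 and Cd34, both endothelial, differed by -0.59 and -0.59, the matrix protein gene Sparc by -0.54 and the pericyte gene Rgs5 by -0.74, each with an unadjusted p under 0.05 only. Without WT 7 the difference was -0.33 for Egfl7 and -0.24 for Sparc, and the median of the fibroblast list was -0.05. The adipocyte list had 3 of 3 higher (median 0.16), the Schwann cell and neuron list 2 of 4 (median -0.16), and the erythrocyte list 0 of 2 (median -0.50). Without the genotype covariate, the mean log2 value of the adipocyte list was lower in glucagon-rich libraries, 2.96 against 3.29. Of the 10 lymphocyte genes 0 were measured.

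**Figure D4:**
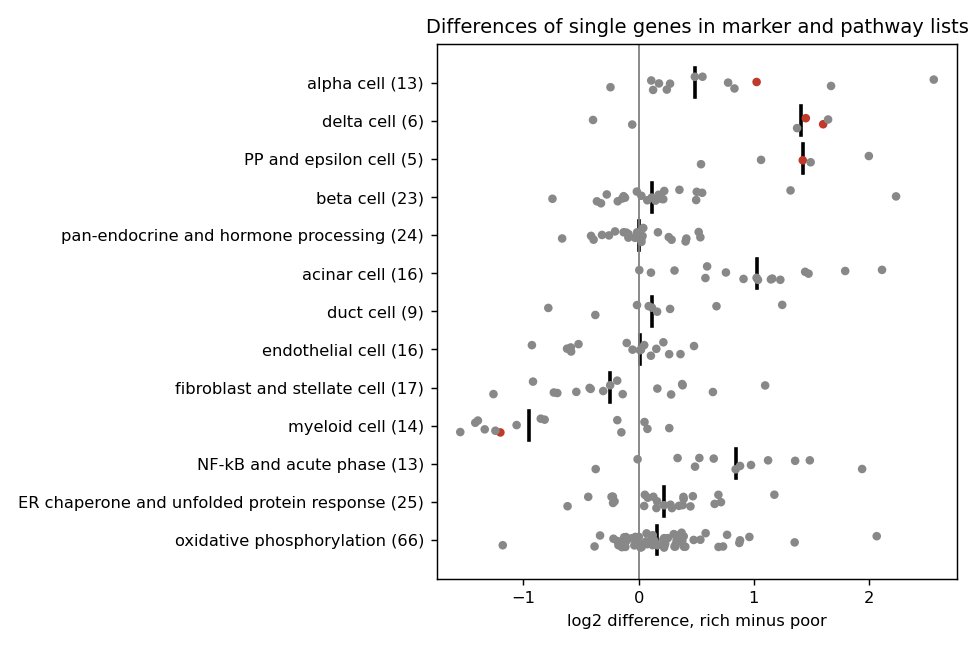
Log2 difference (glucagon-rich minus glucagon-poor, genotype as covariate) of each measured gene in 13 of the lists, with the number of genes in parentheses; each point is a gene, red where the limma adjusted p is under 0.05, and black bars are list medians. The delta, PP and epsilon, and acinar lists have medians of 1.41, 1.42 and 1.03 and the myeloid list of -0.95, against 0.03 over all genes tested.

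In the lists of cell stress, energy metabolism and inflammation 0 genes passed. Of 25 chaperone and unfolded protein response genes 19 were higher, with a median of 0.22; Manf, a secreted survival factor induced by endoplasmic reticulum stress, differed by 1.18, Sdf2l1 by 0.66 and the disulfide isomerase P4hb by 0.45. Of 66 oxidative phosphorylation genes 46 were higher, with a median of 0.16, or 0.03 without WT 7. Without WT 7 and KO 3, 26 of the 66 were higher and the median was -0.08. Ndufa4, Atp5h and Ndufa10 differed by 2.07, 1.35 and 0.58, and without WT 7 by 1.19, 0.71 and 0.52. Of 13 genes of the NF-kB and acute phase list 11 were higher, with a median of 0.84. Its members Socs3, a brake on cytokine signalling, Il1b, the cytokine interleukin 1 beta, and Nfkb1, an NF-kB subunit, differed by 1.94, 1.36 and 0.65. Socs3 differed by 1.13 without WT 7 and by 0.49 without WT 7 and KO 3. The mean log2 value of that list nevertheless ranged from 2.82 to 5.06 in glucagon-rich and from 2.33 to 4.58 in glucagon-poor libraries.

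The other lists had medians between -0.22 and 0.14, and 0 of their genes passed. Glycolysis and insulin-secretion metabolism had 5 of 19 genes higher (median -0.22), or 8 of 19 without WT 7 (median -0.0074), and interferon response and MHC class I had 10 of 25 (median -0.07). In the interferon list Gbp3, an interferon-induced GTPase, differed by 1.86, Tapbp, which loads class I, by -0.54, or -0.32 without WT 7, and the transcription factor Irf9 by -0.63. Immediate early genes had 11 of 18 higher (median 0.14), among them Junb at 1.40, or 0.43 without WT 7. The dedifferentiation and disallowed list had 8 of 14 higher (median 0.07), proliferation 5 of 10 (median -0.02) and NAD metabolism 12 of 16 (median 0.12), or 8 of 16 without WT 7 (median 0.02). In the NAD list the deacetylase Sirt2 differed by 0.81 (limma adjusted p = 0.211).

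With the ratio as a continuous term over all 18 libraries and genotype as a covariate, limma called 16 genes with a positive slope (0.152%) and 6 with a negative one (0.0571%). Of the 6 genes that rose between the groups 5 were among the 16, and of the 2 that fell 1, Cd74, was among the 6. Sst had the smallest p, with a slope of 0.70 log2 units per log2 unit of the ratio (SE 0.09; limma adjusted p = 0.000116), followed by Pyy at 0.64 (SE 0.10; limma adjusted p = 0.00153). Ttr was the one of the 6 that did not pass there, with a slope of 0.42 (limma adjusted p = 0.0636). These libraries include the 12 that were compared above.

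Within the 8 WT libraries alone 94 genes had a positive (0.895%) and 17 a negative slope (0.162%) by limma. Of the 94, 10 were acinar genes. The WT libraries of lowest ratio, WT 6 (-6.86) and WT 7 (-7.05), form a run of consecutive animal numbers. The other WT libraries had ratios of -5.77 to -4.95, so a low ratio and that run cannot be told apart within WT. Within the 10 KO libraries 0 passed in limma, with 502 at an unadjusted p under 0.05. This does not show that the genotypes differ: the interaction of ratio and genotype, added after the data had been seen, passed for 0 genes in limma, with 781 at an unadjusted p under 0.05. For 16 genes, those named above as passing or nearest to it and Ppy, its adjusted p in limma was 0.724 or more. Sst had slopes of 0.71 within KO (limma adjusted p = 0.120) and 0.67 within WT (limma adjusted p = 0.0155). Pyy had 0.69 and 0.51, Ppy 0.72 and 0.68, and Ttr 0.34 and 0.62 in KO and WT.

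**Figure D5:**
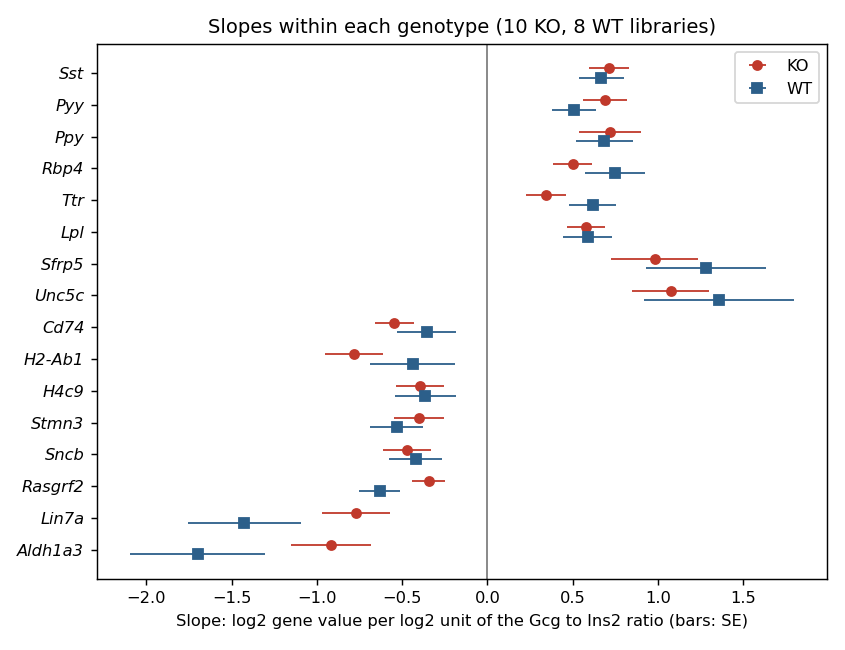
Slope of each gene's log2 value on the log2 ratio of Gcg to Ins2 (horizontal axis) within the 10 KO libraries (red circles) and the 8 WT libraries (blue squares); bars are standard errors. Sst has slopes of 0.71 in KO and 0.67 in WT, and Aldh1a3 of -0.92 in KO and -1.70 in WT. The genes were chosen from comparisons that include these libraries. The WT libraries of lowest ratio, WT 6 and WT 7, share a run of animal numbers.

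The titles carry animal numbers, and 14 libraries fall into runs of consecutive numbers, which the labels do not call a batch. With the run as a further term over those 14 libraries, limma called 3 genes, the islet hormones Sst (slope 0.82), Pyy (0.75) and Ppy (1.19), each at an adjusted p of 0.0304. Rbp4, Sfrp5, Unc5c and Cd74, which passed over all 18 libraries, did not pass in that fit, with slopes of 0.61, 1.35, 0.99 and -0.21 and limma adjusted p-values of 0.797 to 0.917.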

How the data were processed

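Islets were profiled with a 3′ end mRNA kit (QuantSeq FWD), per the labels' protocols. Per the submitters' processing notes, the tools were HTSeq 0.6.1, STAR 2.5.2 and edgeR, with the build GRCm38; their roles are not stated there. In the deposited table, 10509 genes have log2 values in each of 18 libraries. All share a lowest log2 value of -0.83. After that floor of 0.562 CPM was subtracted, every value was a whole number of reads (tolerance 0.05 reads, 100% of values). With 1 read worth 0.238 to 0.411 CPM, the deposited values are log2 of CPM plus 0.562. The scaling did not follow the listed reads alone: 1 read was worth 0.390 CPM in KO 3 (3292303 reads) and 0.265 in KO 6 (3295299). Where reads are few, the offset draws the log2 difference between 2 libraries toward 0. Limma voom on the recovered reads gave 3.17 for Unc5c and 2.82 for Irx1, against 2.99 and 2.56. For Sfrp5, Socs3 and Cpa1 it gave less, 2.32, 1.25 and 0.40 against 2.64, 1.94 and 2.11. Sfrp5, Unc5c, Cd74 and H4c9 did not pass with limma voom (adjusted p = 0.0757 to 0.107). The median gene had 61.5 reads. PCR copies could not be removed, and only reads of listed genes are covered.

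Libraries were ranked by log2 Gcg minus log2 Ins2. The 6 highest and 6 lowest were compared with limma 3.58.1 in R 4.3.3 (linear model, variance trend, genotype as covariate, two-sided, Benjamini-Hochberg adjusted p under 0.05 over 10507 genes, without Gcg and Ins2). The fit was tested on simulated data. The members and the 23 gene lists were chosen with earlier results of these data known. Libraries of the same genotype differed by more than sampling noise in each of 73 pairs (chi-square per degree of freedom 6.22 to 44.3, genes with at least 20 summed reads). The labels give no replicate numbers, so libraries were numbered within a genotype in accession order.

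Named genes are those that passed, filled to 8 per direction by p; measured alpha cell genes; Ins1, Iapp, Sst, Ppy and Pyy; and up to 3 members of smallest p of each other list, of which those at an unadjusted p of 0.05 or more are given as counts only. Some genes that the rule takes in are not reported here by name. List values are counts and medians, with no test of the list. Identifiers were matched to RefSeq tables of GRCm38.p6 (10508 found), from which coordinates and promoters came. Alternatives changed the covariates, the filter, the scaling, the offset, the variance model or the libraries; limma voom ran on the recovered reads. The interaction of ratio and genotype was added after the data had been seen.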

Additional observations from a re-analysis of the deposited data

Results flagged for a closer look

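Among the 56 named genes, 112 groups of 6 libraries were examined for a library far from the others, and 9 held one; chance gives about 1 in 20 groups. Values are log2 values, and the nearest other library of the same group is given beside each. In the glucagon-rich group, KO 7 was low for Iapp at 13.72 (nearest 14.22), WT 5 was low for Egfl7 at 6.17 (nearest 6.39) and for Ndufa4 at 2.65 (nearest 3.72), WT 2 was low for Irf9 at 3.77 (nearest 4.97), and WT 8 was high for Neurod1 at 8.12 (nearest 7.98). In the glucagon-poor group, KO 3 was high for Ppp1r1a at 7.76 (nearest 6.87). WT 7, the only WT library there, was high for H4c9 at 5.97 (nearest 5.18) and for Pou3f4 at 3.82 (nearest 1.88) and had no read of Cpa1, a log2 value of -0.83 (nearest 4.28). KO 3 and WT 7 are also the glucagon-poor libraries with the most listed genes at 0 reads.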

How the results depend on the processing

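Between the groups limma called 6 genes higher and 2 lower. Leaving out each of the 12 libraries in turn gave 0 to 20 higher and 0 to 8 lower. The count of higher genes moved over 1.5 times without WT 7 (0), KO 1 (1), WT 2 (2), KO 10 (12), KO 7 (16) and KO 3 (20). Sst passed in 11 of the 12, Ttr and Rbp4 in 9, Pyy in 7, Sfrp5 and Unc5c in 6, and Cd74 and H4c9 in 4. Counts (higher and lower) were 13 and 4 without the genotype covariate, 11 and 4 with 1 added on the linear scale, 14 and 4 with sample weights, 9 and 6 with the acinar covariate, 2 and 0 with endothelial and fibroblast covariates, 5 and 0 under quantile normalization, 4 and 0 with limma voom, 4 and 0 without WT 7 and KO 3 (the third library of that alternative, KO 2, lies in between), 0 and 0 without the variance trend (1000 genes at an unadjusted p under 0.05), and 24 and 7 at an adjusted p under 0.10. The continuous term gave 16 and 6 over all libraries, 94 and 17 within WT, 0 and 0 within KO, and 3 and 0 with the run of animal numbers; the cause of these changes was not tested. Of the 56 named genes, 45 kept their sign under each of the 29 settings that tested them. The stricter filter left some named genes untested, among them Unc5c. Within WT the slope turned to 0.0369 for Iapp, 0.0015 for Meis2, -0.0434 for Gc, -0.24 for Pou3f4, -0.60 for Fap and 0.0282 for Cd34; within KO it was -0.0052 for Dpp4, and with the run 0.0137 for Ins1. Dpp4 was -0.0367 with sample weights, and Fap -0.0363 with 1 added and -0.0599 under quantile normalization. Without WT 7 and KO 3, Neurod1 was -0.0280, Cpa1 -0.0293 and Junb -0.18. Leaving out single libraries gave -0.0772 to 0.295 for Dpp4, -0.12 to 0.86 for Pou3f4 and -0.35 to 1.20 for Fap. The labels give no replicate numbers to pair libraries by, and the run of animal numbers was the one block fitted. Few reads limit the differences of Unc5c, Irx1, Fev, Npy and Efnb3, and intervals do not cover the choice of the groups.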

Other observations

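The continuous fit over 18 libraries called 22 genes, and 8 of them, outside the rule for named genes, are named after their values were seen. Those with a positive slope (log2 units per log2 unit of the Gcg to Ins2 ratio, limma adjusted p in parentheses) were Avpr1b, a vasopressin receptor that couples to calcium release, at 1.09 (0.0334); Gria3, an AMPA-type glutamate receptor subunit, at 0.63 (0.0499); and Ppargc1a, a coactivator of mitochondrial and gluconeogenic genes, at 1.06 (0.0421). Msln, mesothelin, had 1.18 (0.0362), Upp1, uridine phosphorylase, 0.55 (0.0275), Eef1a2, a translation elongation factor of neurons and muscle, 0.75 (0.0456), and Tnr, tenascin R, 0.40 (0.0456). Wnt4, a Wnt ligand, was the one with a negative slope, at -0.32 (0.0499). None of the 8 passed between the 6 glucagon-rich and 6 glucagon-poor libraries, where limma adjusted p-values were 0.0796 to 0.181. Few reads lie behind several of these slopes. Reads per library were 0 to 26 for Avpr1b, 0 to 50 for Msln, 0 to 54 for Ppargc1a and 7 to 65 for Eef1a2.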
